A study of Mus musculus with 8 samples.

Results

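The Cyp2c genes encode cytochrome P450 enzymes of the endoplasmic reticulum, and 10 of them were compared between livers with and without the Tm6sf2 E167K variant: Cyp2c29, Cyp2c37, Cyp2c38, Cyp2c39, Cyp2c40, Cyp2c44, Cyp2c50, Cyp2c54, Cyp2c55 and Cyp2c68. Members were chosen by the gene symbol that the array's platform annotation gives a probe set, and a gene with several probe sets was read from the one with the highest mean over all 8 arrays. Cyp2c44 was matched as Cyp2c23, the symbol that the platform and RefSeq now use for it. All 10 members had a probe set of their own, among 22180 genes in all, and all 10 were bright enough to be tested, among 13449 tested genes. Liver RNA of male C57BL/6J mice was hybridised to 4 arrays labelled wild type and to 4 labelled knock-in, for the E167K variant of Tm6sf2; the wild type mice were littermates of the knock-in, and the labels do not say whether the allele was carried on one or both chromosomes. The sources disagree on the diet of all 8 arrays, naming a high-fat diet for 20 weeks in one place and a fat-free sucrose diet or chow for 14 weeks in another. No result is tied to a diet. The labels do not state that each array is a separate animal, and the p-values therefore rest on the spread among these arrays alone, which may be technical.

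P450 enzymes of this family take electrons from the NADPH reductase of the same membrane and insert an oxygen atom into their substrates. They oxidise drugs and steroids, and several turn arachidonic or linoleic acid into epoxides or hydroxy acids that act as lipid mediators. In liver their transcription depends on the hepatocyte factor HNF4A, and some members are induced by the xenobiotic receptors CAR (Nr1i3) and PXR (Nr1i2) or differ between the sexes under the control of growth hormone.

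In the RefSeq annotation of GRCm38.p6, the members lie on chromosome 19. In order of position, 9 of them run from Cyp2c55 through Cyp2c29, Cyp2c39, Cyp2c38, Cyp2c68, Cyp2c40, Cyp2c37 and Cyp2c54 to Cyp2c50. The coding genes between those 9 are only Cyp2c65, Cyp2c66, Cyp2c67 and Cyp2c69, and 53 coding genes separate Cyp2c50 from Cyp2c23. RefSeq promoter windows were matched for 8 members, with 9 windows in all, since Cyp2c39 has several starts; Cyp2c54 and Cyp2c23 were not matched. The stretches before the start site are shown for 3 pairs of members because these near copies share much of their promoter. Each runs 5′ to 3′ toward the gene, at most 150 bases long and ending outside the annotated gene, with the letters CAAAGTC, the core of an HNF4-type element, in capitals.
Cyp2c37, chr19:39992274-39992423, plus strand: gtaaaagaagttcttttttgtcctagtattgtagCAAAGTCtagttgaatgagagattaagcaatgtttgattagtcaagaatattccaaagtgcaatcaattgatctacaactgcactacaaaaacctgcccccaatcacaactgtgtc
Cyp2c50, chr19:40089529-40089678, plus strand: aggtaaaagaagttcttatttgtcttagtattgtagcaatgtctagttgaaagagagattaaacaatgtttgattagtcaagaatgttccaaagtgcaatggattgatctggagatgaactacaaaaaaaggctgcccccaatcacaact
Cyp2c38, chr19:39463104-39463225, minus strand: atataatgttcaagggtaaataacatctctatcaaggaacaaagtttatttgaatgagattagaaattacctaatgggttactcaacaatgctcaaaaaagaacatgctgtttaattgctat
Cyp2c39, chr19:39347196-39347345, plus strand: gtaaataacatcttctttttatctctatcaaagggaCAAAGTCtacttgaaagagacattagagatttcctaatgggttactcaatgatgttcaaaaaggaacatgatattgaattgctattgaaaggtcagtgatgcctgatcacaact
Cyp2c68, chr19:39741102-39741251, minus strand: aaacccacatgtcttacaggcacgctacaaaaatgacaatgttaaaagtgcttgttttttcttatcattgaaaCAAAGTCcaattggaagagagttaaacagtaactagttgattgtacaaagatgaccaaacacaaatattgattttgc
Cyp2c40, chr19:39812815-39812964, minus strand: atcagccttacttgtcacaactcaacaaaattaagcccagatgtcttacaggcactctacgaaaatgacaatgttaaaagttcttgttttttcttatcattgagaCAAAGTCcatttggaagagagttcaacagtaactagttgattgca

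Identities and motifs were read over the 250 bases before each window's start. In Cyp2c29, Cyp2c38, Cyp2c55 and the second start of Cyp2c39, the last of these bases lie inside the annotated gene. Cyp2c68 and Cyp2c40 were identical at 95.4% of 217 aligned bases. The windows of Cyp2c37 and Cyp2c50 were identical at 87.8% of 245 aligned bases. Those of Cyp2c38 and Cyp2c39 (first start) were identical at 85.5% of 235, and Cyp2c55 and Cyp2c38 at 61.4% of 215, the lowest among the compared windows. The motifs below were chosen after these sequences were seen. The letters CAAAGTC, searched on both strands, were present in 6 of the 9 member windows, and in 3.84% of all 32851 RefSeq windows. These 6 belong to 5 of the 8 members (Cyp2c29, Cyp2c37, Cyp2c39, Cyp2c40 and Cyp2c68). The letters began 116 bases before the start in Cyp2c37, 114 in Cyp2c39 (first start), 77 in Cyp2c68 and 45 in Cyp2c40. Because the windows are copies of one another, the members are not independent cases. TATAAA was found in 3 of the 9 member windows (Cyp2c29, Cyp2c38 and Cyp2c55) and in 12.4% of all windows. GTTAAT, part of an HNF1 site, was found in 2 of the 9 (Cyp2c40 and Cyp2c68) and in 6.43%. AGGTCA, a hexamer that nuclear receptors bind, was found in 2 of the 9 (Cyp2c29 and Cyp2c39) and in 14.0%. None of the 4 motifs contains another.

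No difference between genotypes passed the test in the family. With limma and Benjamini-Hochberg adjustment over all tested genes, 0 of 10 members had an adjusted p under 0.05, against 0.0669% of tested genes (9 of 13449). At an unadjusted p under 0.05 the count was also 0 of 10, against 11.3% of tested genes (6.01% higher and 5.29% lower in the knock-in). A difference of at least 1.5-fold was seen in 0 of 10, against 2.78%, with Cyp2c55 just inside that bound at 1.496-fold. In 0 of 10 members did the 4 knock-in arrays lie apart from the 4 wild type arrays, against 7.16%. The change (log2, knock-in minus wild type) was above 0 in 7 members and below 0 in 3 (above 0 in 51.1% of tested genes), or 8 and 2 with each array's median set to 0, where Cyp2c68 turned from -0.02 to 0.0048. The median change was 0.08, against 0.0046 over all tested genes, and the median size of change was 0.12 in both. In these whole-liver samples, fewer cells of a type and less RNA per cell cannot be told apart.

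**Figure D1:**
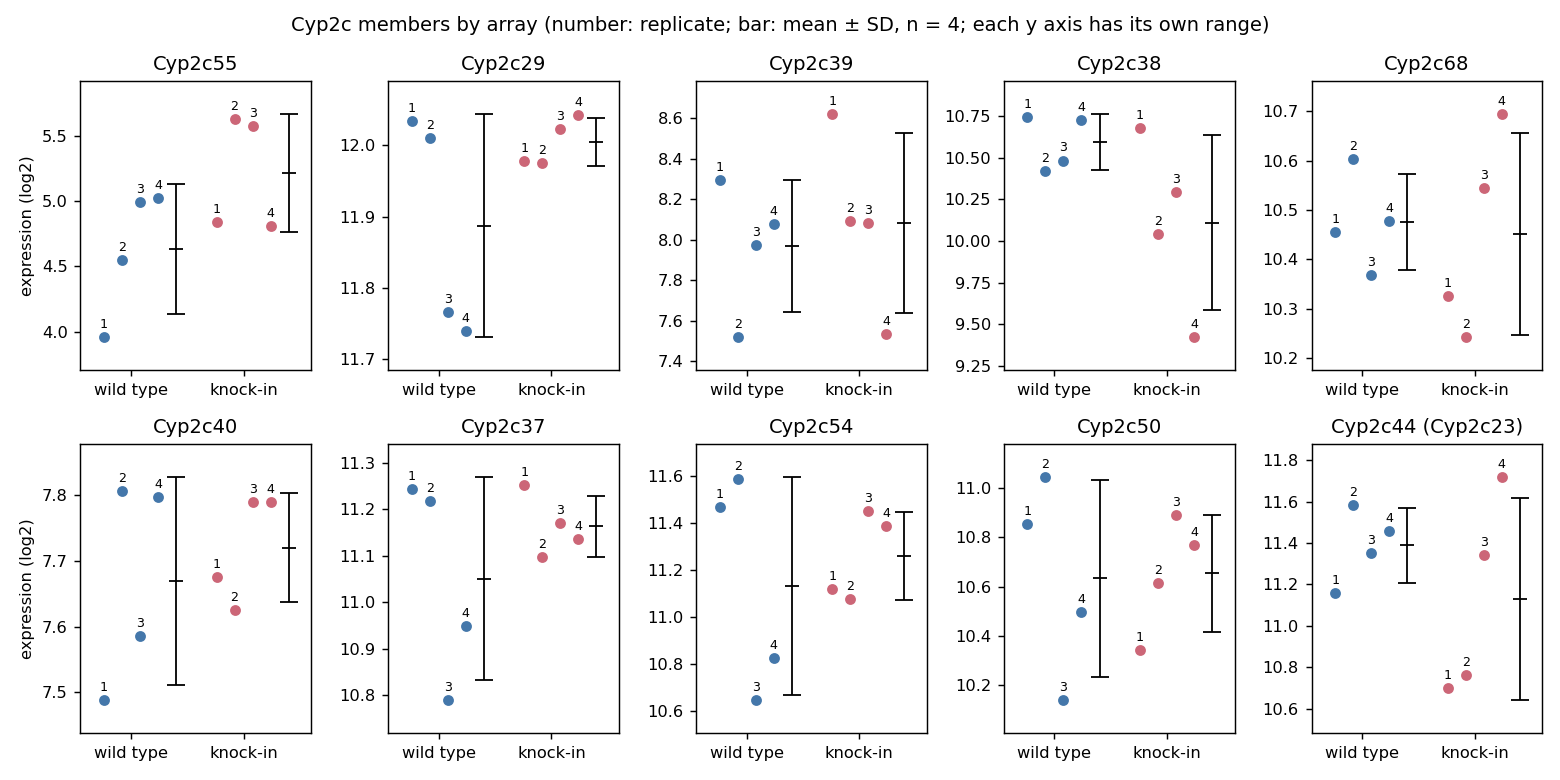
Expression (log2, vertical axis, scaled separately for each gene) of the 10 Cyp2c members in the 4 wild type and 4 knock-in arrays. Points are arrays with their replicate number, and bars give mean ± SD (n = 4). In each panel the groups overlap.

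The values of the fatty acid epoxygenase Cyp2c29, which CAR induces, were 12.03, 12.01, 11.77 and 11.74 in wild type replicates 1 to 4. In knock-in replicates 1 to 4 they were 11.98, 11.97, 12.02 and 12.04. Wild type replicates 1 and 2 were above replicates 3 and 4, and the knock-in arrays lay within 0.0667 of each other, at the level of wild type replicates 1 and 2. The means were 11.89 ± 0.16 (SD, n = 4) and 12.00 ± 0.03, a change of 0.12 (SE 0.09, 95% interval -0.10 to 0.33, limma adjusted p = 0.701). On a linear scale the interval runs from 0.935-fold to 1.26-fold. The change was 0.076 and 0.068 without wild type replicates 3 and 4, and 0.014 when averaged with the gene's other probe set, which lies below the dim limit (the 40th percentile of each array, 3.46 to 3.5).

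Cyp2c37, Cyp2c54 and Cyp2c50, neighbours at one end of the cluster, are also fatty acid oxygenases. Cyp2c54 stood at 11.47, 11.58, 10.65 and 10.83 in wild type and at 11.12, 11.08, 11.45 and 11.39 in knock-in replicates 1 to 4. Cyp2c50 stood at 10.85, 11.04, 10.14 and 10.50 in wild type and at 10.34, 10.61, 10.89 and 10.77 in the knock-in. Cyp2c37 had wild type values of 11.24, 11.22, 10.79 and 10.95 and knock-in values of 11.25, 11.10, 11.17 and 11.14. In all 3 genes, wild type replicates 3 and 4 were the lowest wild type arrays and wild type replicate 3 was the lowest of all 8. The change was 0.13 in Cyp2c54 (SE 0.22, 95% interval -0.36 to 0.61, limma adjusted p = 0.884). It was 0.02 in Cyp2c50 (SE 0.20, interval -0.44 to 0.47, adjusted p = 0.984) and 0.11 in Cyp2c37 (SE 0.12, interval -0.15 to 0.37, adjusted p = 0.774). Without wild type replicate 3 the change of Cyp2c37 was 0.026, and without wild type replicates 1 or 2 it was 0.18 or 0.17. The sign of the change rested on single arrays in 2 of the 3 genes. It was -0.034 in Cyp2c54 without wild type replicate 3, and in Cyp2c50 it was -0.14 without wild type replicate 3, -0.027 without wild type replicate 4, -0.060 without knock-in replicate 3 and -0.019 without knock-in replicate 4.

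Cyp2c38 and Cyp2c39 are close relatives of Cyp2c29, and Cyp2c39 can hydroxylate retinoic acid. Cyp2c38 was at 10.75, 10.42, 10.48 and 10.73 in wild type and at 10.68, 10.04, 10.29 and 9.42 in knock-in replicates 1 to 4. Of the knock-in arrays, 3 lay below all wild type arrays, and replicate 1 lay among them. The means were 10.59 ± 0.17 (SD, n = 4) and 10.11 ± 0.53, a change of -0.48 (SE 0.24, 95% interval -1.02 to 0.05, limma adjusted p = 0.481, exact permutation p = 0.114). That change was -0.67 without knock-in replicate 1 and -0.26 without knock-in replicate 4. Cyp2c39 was at 8.30, 7.52, 7.98 and 8.08 in wild type and at 8.62, 8.10, 8.08 and 7.54 in the knock-in. Both genotypes were among its lowest and its highest arrays, and its change was 0.11 (SE 0.23, interval -0.42 to 0.65, adjusted p = 0.909), or -0.034 without wild type replicate 2 and -0.064 without knock-in replicate 1.

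Cyp2c40, an arachidonic acid hydroxylase, and Cyp2c68 had small spreads. Cyp2c40 was at 7.49, 7.81, 7.59 and 7.80 in wild type and at 7.68, 7.63, 7.79 and 7.79 in the knock-in, a change of 0.05 (SE 0.10, 95% interval -0.18 to 0.28, limma adjusted p = 0.904). Every knock-in value lay within the wild type range, and the change was -0.0096 without wild type replicate 1. Cyp2c68 was at 10.45, 10.60, 10.37 and 10.48 in wild type and at 10.33, 10.24, 10.54 and 10.69 in the knock-in, a change of -0.02 (SE 0.12, interval -0.29 to 0.24, adjusted p = 0.965). Knock-in replicates 1 and 2 were below and replicate 4 above all wild type arrays. Its change was 0.018 without wild type replicate 2 or without knock-in replicate 1, and 0.046 without knock-in replicate 2. A brighter probe set annotated to both Cyp2c67 and Cyp2c68, which names neither gene, was at 12.27 to 12.67 in wild type and 12.20 to 12.49 in the knock-in, a change of -0.12 (SE 0.13, adjusted p = 0.865 over all probe sets).

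Cyp2c44 (Cyp2c23), an arachidonic acid epoxygenase encoded apart from the main cluster, was at 11.16, 11.59, 11.35 and 11.46 in wild type and at 10.70, 10.76, 11.34 and 11.72 in knock-in replicates 1 to 4. Knock-in replicates 1 and 2 lay below all wild type arrays, and replicate 4 lay above them. The means were 11.39 ± 0.18 (SD, n = 4) and 11.13 ± 0.49, a change of -0.26 (SE 0.22, 95% interval -0.76 to 0.25, limma adjusted p = 0.722, exact permutation p = 0.343). The change was -0.11 without knock-in replicate 1, -0.13 without knock-in replicate 2 and -0.45 without knock-in replicate 4 (limma adjusted p = 0.389 for the last).

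Cyp2c55, which is abundant in the gut and inducible in liver through CAR and PXR, had the largest change of the members. It was at 3.96, 4.55, 4.995 and 5.02 in wild type and at 4.84, 5.63, 5.57 and 4.81 in the knock-in, not far above the dim limit. Knock-in replicates 2 and 3 lay above all wild type arrays, and replicates 1 and 4 among them. The means were 4.63 ± 0.50 (SD, n = 4) and 5.21 ± 0.45, a change of 0.58 (SE 0.28, 95% interval -0.06 to 1.22, limma adjusted p = 0.480, exact permutation p = 0.171). The other Cyp2c55 probe set had the opposite sign, at -0.13 (SE 0.24, adjusted p = 0.932 over all probe sets), with 3.82 to 4.93 in wild type and 4.30 to 4.67 in the knock-in. With the mean of both probe sets the change was 0.23. On leaving out single arrays it ran from 0.36, without wild type replicate 1, to 0.71, without knock-in replicate 4. The 5 tested genes outside the family whose pattern over the 8 arrays was most like that of Cyp2c55, of 13437 compared, were Sft2d3 (Pearson r = 0.974), Flt4 (0.968), Pcif1 (0.965), Ndufs3 (0.953) and Pitpnc1 (0.950). They are the extreme of 13437 values over only 8 arrays, for a probe set near the dim limit. Whether they exceed what so many comparisons give was not tested.

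**Figure D2:**
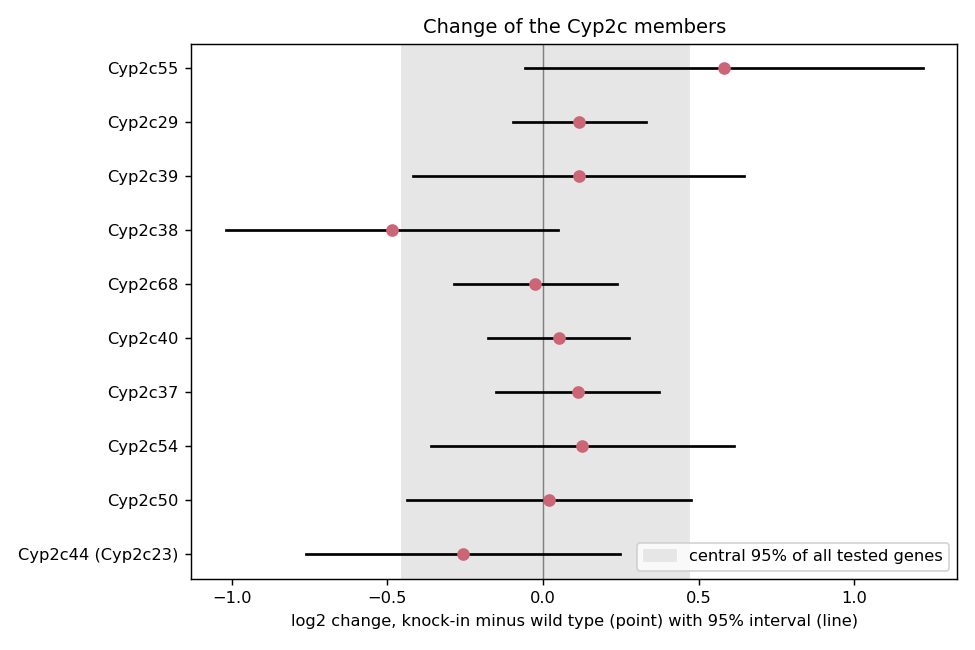
Change of each member (point; log2, knock-in minus wild type, horizontal axis) with its 95% interval from limma (line), members in chromosome order from top to bottom. The grey band holds the central 95% of the changes of all tested genes (-0.45 to 0.47). All 10 intervals include 0, from Cyp2c38 at -0.48 to Cyp2c55 at 0.58.

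The intervals set what these arrays can show. The standard error was smallest in Cyp2c29 (0.09) and largest in Cyp2c55 (0.28). For Cyp2c29, Cyp2c37, Cyp2c40 and Cyp2c68, the interval ends lay between -0.29 and 0.37. For Cyp2c38 the interval reached down to 0.494-fold and for Cyp2c55 up to 2.33-fold, so differences up to that size were not excluded in these 2 members.

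Within a genotype, the members differed in how much they varied. The SD among arrays of one genotype had a median of 0.340 over the members, against 0.185 over all tested genes, and was above that of the median gene in 6 of 10. It exceeded that of 95% of tested genes in Cyp2c55, of 90% in Cyp2c38, of 89.8% in Cyp2c39 and of 88% in Cyp2c23, but of 20% in Cyp2c29 and 25.7% in Cyp2c40. Wild type arrays were the more spread in 6 members and knock-in arrays in 4. Cyp2c29 had SDs of 0.156 in wild type and 0.0335 in the knock-in, and Cyp2c38 had SDs of 0.166 and 0.527. These differences in spread were not tested.

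**Figure D3:**
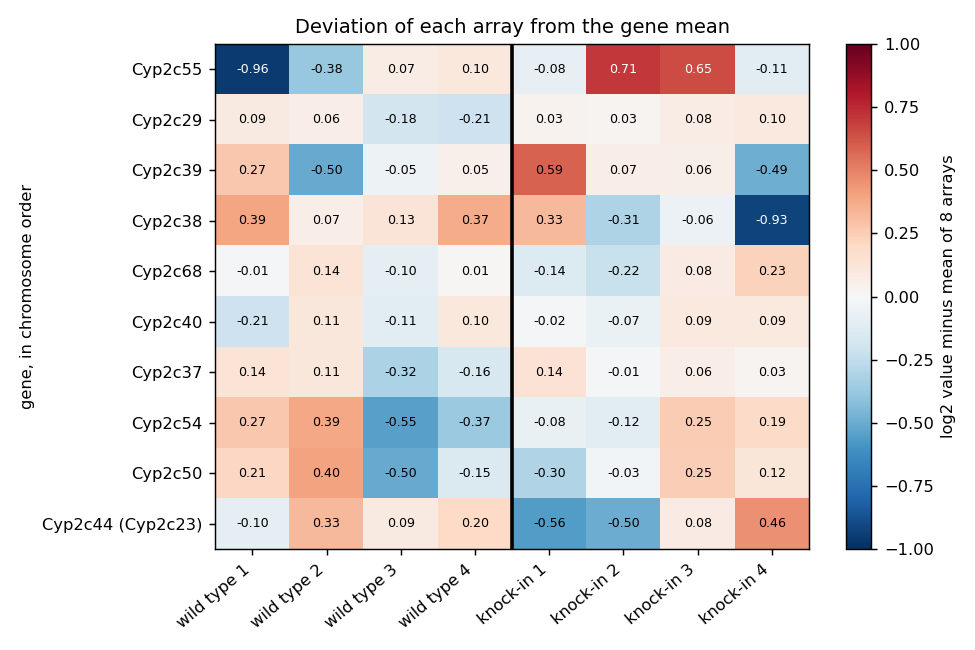
Deviation of each array (columns, wild type left of the line and knock-in right of it) from the mean of the 8 arrays, in log2 units, for each member in chromosome order (rows). Wild type replicates 3 and 4 are low in Cyp2c29, Cyp2c37, Cyp2c54 and Cyp2c50, and knock-in replicate 4 is low in Cyp2c39 and Cyp2c38 but high in Cyp2c68 and Cyp2c23.

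No pair of members passed a test of shared variation over the arrays. Of 45 member pairs, 0 passed an exact permutation test of Pearson's r after Benjamini-Hochberg adjustment over the 45 (lowest adjusted p = 0.0575). An unadjusted p under 0.05 was found in 8 pairs. The same share over pairs of other tested genes was not counted, so these r are not shown to be particular to the family. The median r was 0.015. Beside each r stands its value without the 2 arrays farthest from the median of the pair's first-named gene. Leaving these out narrows that gene's range, which by itself can lower r. Cyp2c54 and Cyp2c50, next to each other on the chromosome, had r = 0.922 (exact permutation p = 0.00176, adjusted p = 0.0575) and Spearman's rho = 0.905 (exact permutation p = 0.00456, adjusted p = 0.103) over 8 arrays. Their r was 0.908 without wild type replicates 3 and 4, the arrays farthest from the median of Cyp2c54. Cyp2c29 and Cyp2c54 had r = 0.897 (exact permutation p = 0.00255, adjusted p = 0.0575) and rho = 0.762 (p = 0.0368, adjusted p = 0.412), with r = 0.772 without those 2 arrays. Cyp2c37 and Cyp2c54 had r = 0.857 (exact permutation p = 0.00551, adjusted p = 0.0619) and rho = 0.738 (p = 0.0458, adjusted p = 0.412), but r = 0.312 without the same 2 arrays. Cyp2c29 and Cyp2c37 likewise had r = 0.876 (exact permutation p = 0.0227, adjusted p = 0.170) and rho = 0.571 (p = 0.151, adjusted p = 0.481), but r = 0.0524 without those arrays.

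Cyp2c68, in the main cluster, and Cyp2c23, apart from it, also had a high r that missed the adjusted threshold. Cyp2c68 and Cyp2c23 had r = 0.886 (exact permutation p = 0.00387, adjusted p = 0.0580) and rho = 0.857 (p = 0.0107, adjusted p = 0.161), and r = 0.766 without knock-in replicates 4 and 2. Cyp2c39 and Cyp2c23 ran opposite, with r = -0.823 (exact permutation p = 0.0140, adjusted p = 0.126), rho = -0.929 (p = 0.00223, adjusted p = 0.1) and r = -0.668 without wild type replicate 2 and knock-in replicate 4. Cyp2c68 and Cyp2c40, whose promoter windows were the most alike, had r = 0.612 (exact permutation p = 0.111, adjusted p = 0.415) and rho = 0.619 (p = 0.115, adjusted p = 0.481), with r = 0.576 without knock-in replicates 4 and 2. Cyp2c37 and Cyp2c50 had r = 0.675 (exact permutation p = 0.0629, adjusted p = 0.314) and rho = 0.429 (p = 0.299, adjusted p = 0.641). Without wild type replicates 3 and 4, r was -0.0268 in Cyp2c37 and Cyp2c50. Cyp2c39 and Cyp2c38 had r = 0.623 (exact permutation p = 0.106, adjusted p = 0.415) and rho = 0.429 (p = 0.299, adjusted p = 0.641), and r = 0.445 without wild type replicate 2 and knock-in replicate 4. With each genotype's mean removed, r was 0.899 in this pair, 0.651 in Cyp2c68 and Cyp2c40, and 0.714 in Cyp2c37 and Cyp2c50. It was 0.945 in Cyp2c29 and Cyp2c54, 0.935 in Cyp2c54 and Cyp2c50, and 0.924 in Cyp2c68 and Cyp2c23. In Cyp2c37 and Cyp2c54 it was 0.86, in Cyp2c29 and Cyp2c37 also 0.86, and in Cyp2c39 and Cyp2c23 -0.832. The values with genotype means removed were not tested. Probe sequences were not used here. Signal that near copies share through a probe set and variation in their transcripts cannot be told apart.

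**Figure D4:**
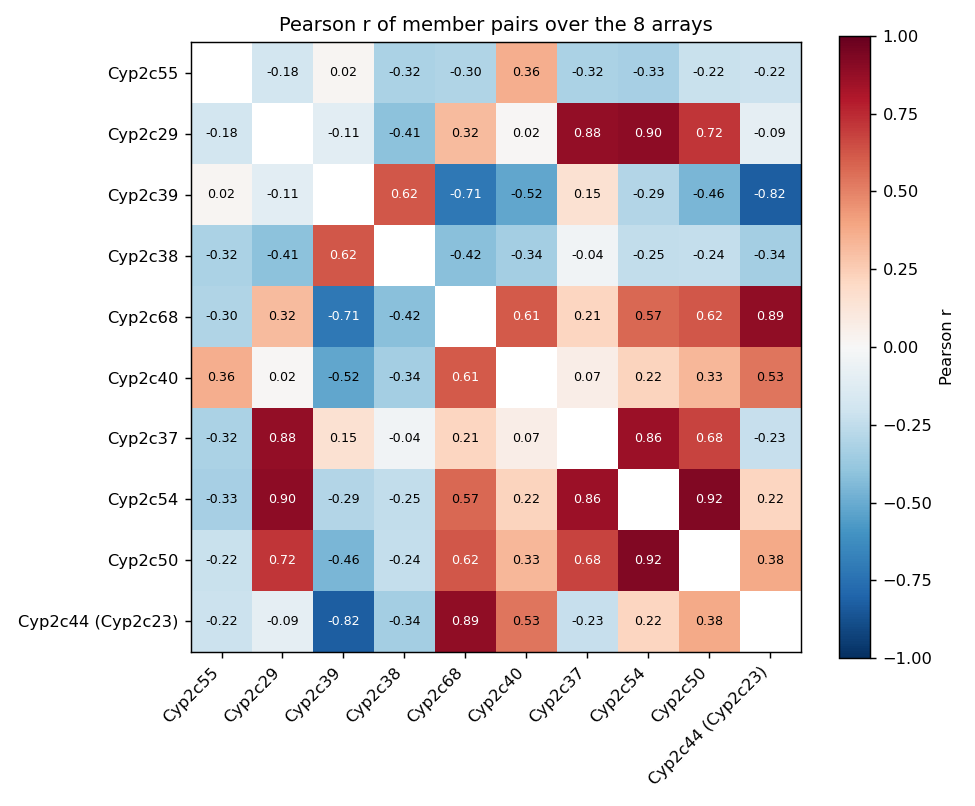
Pearson's r over the 8 arrays for each of the 45 pairs of members, genes in chromosome order on both axes. Cyp2c29, Cyp2c37, Cyp2c54 and Cyp2c50 form a block of positive values up to 0.92, Cyp2c68 with Cyp2c23 stands at 0.89 and Cyp2c39 with Cyp2c23 at -0.82.

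Of the rest of the family, Cyp2c70, which makes the muricholic acids of mouse bile, was at 11.81 ± 0.25 (SD, n = 4) in wild type and 11.84 ± 0.31 in the knock-in (change 0.03, SE 0.18, limma adjusted p = 0.974), or -0.078 without wild type replicate 4 and -0.11 without knock-in replicate 4. Cyp2c69 was at 7.66 ± 0.19 and 7.67 ± 0.64 (change 0.0077, SE 0.28, adjusted p = 0.996); knock-in replicates 3 and 4, at 8.13 and 8.31, lay above all wild type arrays and replicates 1 and 2, at 7.24 and 7.003, below them. Its change was -0.039 and -0.049 without wild type replicates 2 and 4, and -0.15 and -0.20 without knock-in replicates 3 and 4. Of the family's 18 probe sets, 4 lay below the dim limit: those of Cyp2c65, Cyp2c66 and the pseudogene Cyp2c53-ps and another of Cyp2c29. In the fit over all probe sets, 0 of the family's 18 passed, against 18 of all 41345 probe sets. Cyp2c66 was the only one of the family whose groups did not overlap, at 2.49 to 3.17 in wild type and 2.28 to 2.46 in the knock-in (adjusted p = 0.563), both below the dim limit, so no size is given. Cyp2c66 and Cyp2c65 (adjusted p = 0.613) were the 2 with an unadjusted limma p under 0.05. Among tested genes, 7.16% did not overlap and 11.3% had such a p. The same shares over all probe sets were not counted.

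Genes that supply or regulate these enzymes were read from lists, each given by its count of changes above and below 0. Over all tested genes, 51.1% of changes were above 0, and 11.3% had an unadjusted p under 0.05 (6.01% higher and 5.29% lower). Of 10 tested electron partners and haem synthesis genes, 6 were above 0, 4 below, and 0 passed; 0 had an unadjusted p under 0.05. Alas1, which starts haem synthesis, was at 0.23 (SE 0.13, limma adjusted p = 0.560) and the reductase Cyb5r3 at 0.13 (SE 0.11, adjusted p = 0.703). Of 10 genes of arachidonate supply and epoxide hydrolysis, 4 were above 0, 6 below and 0 passed, again with 0 at an unadjusted p under 0.05. Elovl5, an elongase on the path to arachidonic acid, was at -0.21 (SE 0.10, adjusted p = 0.486), the desaturase Fads2 at 0.09 (SE 0.14, adjusted p = 0.864) and Ephx2, the soluble hydrolase of fatty acid epoxides, at -0.13 (SE 0.09, adjusted p = 0.633).

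Of 18 tested transcription factors of P450 genes, 13 were above 0 and 5 below, 0 passed, and 3 above and 1 below had an unadjusted p under 0.05, against 6.01% and 5.29% of tested genes; the median change was 0.15, against 0.0046. Tef, a clock-controlled activator, was at 0.84 (SE 0.16, limma adjusted p = 0.119), with values of 5.71 to 6.24 in wild type and 6.53 to 7.04 in the knock-in. With the mean of its probe sets, Tef was at 0.46 (SE 0.17, limma adjusted p = 0.356). Its relative Dbp was at 0.86 (SE 0.35, adjusted p = 0.385). PXR (Nr1i2) was at 0.33 (SE 0.13, adjusted p = 0.358), with 9.16 to 9.70 in wild type and 9.69 to 9.92 in the knock-in. The hepatocyte factor Foxa3 was the 1 below, at -0.30 (SE 0.12, adjusted p = 0.387). CAR (Nr1i3) was at 0.09 (SE 0.13, 95% interval -0.21 to 0.38) and HNF4A (Hnf4a) at 0.01 (SE 0.09, interval -0.20 to 0.22). The sign turned in Nr1i3 without knock-in replicate 3 (-0.0027), and in Hnf4a without wild type replicates 1 (-0.021) or 2 (-0.026) or knock-in replicates 1 (-0.0024) or 4 (-0.022). Dbp was lowest in wild type replicates 1 and 2 (8.55 and 8.42, against 9.31 and 9.95 in replicates 3 and 4), where Cyp2c54, Cyp2c50, Cyp2c37 and Cyp2c29 were highest among wild type arrays. Tef was likewise lowest in wild type replicates 1 and 2 (5.78 and 5.71, against 6.15 and 6.24 in replicates 3 and 4). The knock-in arrays did not repeat this order for any of these members. In the knock-in, Dbp was highest in replicate 3 (10.31), where Cyp2c54 (11.45) and Cyp2c50 (10.89) were highest too. Cyp2c37 was highest in knock-in replicate 1 (11.25), and stood at 11.14 in knock-in replicate 4, where Dbp was lowest (9.33). Cyp2c29 was highest in knock-in replicate 4, but its knock-in arrays lay within 0.0667 of each other. The part of Dbp or Tef in the spread of these members was not tested.

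Targets of CAR and PXR outside the family were above 0 in 11 of 12 tested genes and below 0 in 1. Of these 12, 0 passed the test, the median was 0.13, and 1 in each direction had an unadjusted p under 0.05. Of the 15 genes listed, Cyp2b10 and Cyp2b13 were too dim to be tested, and Ugt1a1 had no probe set of its own. Over all tested genes 51.1% were above 0, the median was 0.0046, and 6.01% and 5.29% had such a p above and below 0; whether the list differs from them was not tested. The exception was Gadd45b, a stress-inducible gene, at -1.46 (SE 0.37, limma adjusted p = 0.202). Cyp2a5, a coumarin hydroxylase with near copies, was at 2.09 (SE 0.29, adjusted p = 0.0540), and Cyp3a11, the best known PXR target, at 0.19 (SE 0.17, adjusted p = 0.727). Of 8 growth hormone signalling genes, 5 were above 0, 3 below and 0 passed, with 1 below 0 at an unadjusted p under 0.05. Stat5b, the factor through which growth hormone sets sex-biased P450 levels, was at -0.29 (SE 0.10, adjusted p = 0.316), and the receptor Ghr at 0.10 (SE 0.10, adjusted p = 0.772). Of 7 male-biased genes, 3 were above 0, 4 below and 0 passed, with 0 at an unadjusted p under 0.05. Knock-in replicate 4, the array with the lowest Cyp2c38 and the highest Cyp2c23, also stood apart in the male-biased elongase gene Elovl3, at 12.40 against 11.17 to 11.27 in the other knock-in arrays; the change of Elovl3 was -0.36 (SE 0.27, adjusted p = 0.670). What such array-to-array differences share with the members was not tested. Of 4 tested female-biased genes, 2 were above 0, 2 below and 0 passed, with 1 in each direction at an unadjusted p under 0.05. Cyp2a4, a near copy of Cyp2a5, was at 2.70 (SE 0.54, adjusted p = 0.119) and A1bg at -1.02 (SE 0.41, adjusted p = 0.381), with 3 of its 4 knock-in arrays under the dim limit.

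Zonation and cell type markers gave the setting. Of 13 pericentral hepatocyte genes, the zone where many P450 genes are expressed, 8 were above 0, 5 below and 0 passed. Tbx3 at -0.82, Axin2 at -0.62, Rhbg at 0.53 and Slc1a2 at 0.24 had an unadjusted limma p under 0.05. Over all tested genes, the share with such a p was 11.3%. The limma adjusted p-values of these genes were 0.309, 0.402, 0.348 and 0.338. With the mean of its probe sets, Axin2 was at -0.28 (SE 0.20, limma adjusted p = 0.651). Of 9 tested periportal genes, 7 were above 0, 2 below, 0 passed and 0 had an unadjusted p under 0.05, with Cps1 at -0.02 (0.0094 with each array's median set to 0) and Pck1 at 0.04. Hepatocyte markers, at array means of 12.54 to 12.55 in wild type and 12.55 to 12.60 in the knock-in, were bright in every array. Their changes were above 0 in 9 of 9, with a median of 0.02 and 0 at an unadjusted p under 0.05. Markers of cholangiocytes, Kupffer cells, sinusoidal endothelium, stellate cells, T and NK cells, B cells and neutrophils had 0 members past the test, and Lyve1, of sinusoidal endothelium, was the only one with an unadjusted limma p under 0.05, at 0.73 (SE 0.23, adjusted p = 0.295).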

How the data were processed

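Mouse liver RNA was measured on 8 Affymetrix whole-transcript arrays, with 400 ng of RNA per array, per the labels. The deposited values are log2 expression per probe set, normalized by the authors; RMA and limma, with no version, appear in the submitters' processing notes. Genome build and annotation version: not given in the sources used here. Array medians ran from 3.73 to 3.80. Arrays have no read depth, and their number limits the precision.

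Of 41345 probe sets, 23521 have exactly 1 gene symbol, 1814 several and 16010 none listed. Through Entrez identifiers 23328 matched RefSeq (GRCm38.p6), and 0 symbols changed. Genes entered the test when 4 or more of the 8 arrays lay above the array's 40th percentile over probe sets with 1 symbol (the dim limit). The genotypes were compared with limma 3.58.1 under R 4.3.3 (genotype only, two-sided, Benjamini-Hochberg over all tested genes, threshold 0.05); code was tested on simulated data. SE and 95% intervals are the model's. The exact permutation test is two-sided, and 4 against 4 arrays allow no p below 0.0286. Rank correlations were tested in the same way as Pearson's.

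Named genes: all members, and in each list up to 3 genes with the smallest unadjusted p under 0.05, otherwise the 2 brightest. Nr1i3, Hnf4a, Ephx2, Cyp3a11, Ghr, Foxa3, Axin2 and Lyve1 were added after their values were seen, and the motifs after the sequences were. Members and lists were chosen with earlier results of these data known. Same-numbered arrays of the 2 groups deviated together with r of -0.105 to 0.101 over tested genes, and differently numbered arrays with r of -0.094 to 0.107. These values show no pairing by replicate number but cannot exclude one. Counts from a fit with the replicate as a block are given below. No batch is labelled.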

Additional observations from a re-analysis of the deposited data

Results flagged for a closer look

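Among the members, 0 of the 20 groups of 4 arrays held an array that stood apart by Dixon's criterion, which flags about 1 group in 20 by chance. Over all named genes, 6 of 78 groups did. Knock-in replicate 4 was high in Elovl3 (12.40, others 11.17 to 11.27) and in Mup20 (13.15, others 12.89 to 12.93), both male-biased. Knock-in replicate 2 was high in A1bg (4.04, others 2.90 to 3.09) and low in Cps1 (13.06, others 13.13 to 13.14) and Axin2 (5.81, others 6.13 to 6.16). Knock-in replicate 3 was high in Rhbg (7.13, others 6.54 to 6.63).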

How the results depend on the processing

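Under 16 alternatives, 0 of 159 member values passed the adjusted threshold; Cyp2c55 is left out by the stricter filter. Genes past the threshold among all tested numbered 9, but 2 with no filter, 32 with the stricter filter, 15 with array medians set to 0, 24 with the mean of probe sets, 73 with a trended and robust prior, 25 with array weights and 1 to 12 on leaving out an array (1 when wild type replicate 2, knock-in replicate 1 or knock-in replicate 3 was dropped, 2 and 3 for wild type replicates 4 and 1, and 4 for knock-in replicate 2). With the replicate block there were 2, and 1 member (Cyp2c55, limma adjusted p = 0.471) had an unadjusted p under 0.05. On leaving out an array that member count ran from 0 to 2: it was 1 (Cyp2c55) without wild type replicate 4 and 2 without knock-in replicate 1 (Cyp2c38 and Cyp2c55) or 4 (Cyp2c23 and Cyp2c55). The count of members whose groups do not overlap ran from 0 to 1, which was Cyp2c38 without knock-in replicate 1.

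Signs turned in 12 member values. With array medians set to 0, Cyp2c68 was at 0.0048 and Cps1 at 0.0094. On leaving out an array, changes ran from -0.064 to 0.30 in Cyp2c39, -0.0096 to 0.10 in Cyp2c40, -0.14 to 0.16 in Cyp2c50, -0.034 to 0.28 in Cyp2c54, -0.10 to 0.046 in Cyp2c68, -0.11 to 0.12 in Cyp2c70, -0.20 to 0.23 in Cyp2c69, -0.0027 to 0.18 in Nr1i3 and -0.026 to 0.054 in Hnf4a. Cyp2c29, Cyp2c37, Cyp2c38, Cyp2c23 and Cyp2c55 kept their sign under each alternative. Cyp2a5 passed under 6 alternatives and Tef under 1, the trended and robust prior. The cause of these differences was not tested.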
